A study of Mus musculus with 16 samples.

Results

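10 genes of the T cell receptor and of T cell surface proteins were followed in RNA of mice given IL-23 or vehicle. They were the delta constant gene Trdc, the gamma constant genes Tcrg-C1 and Tcrg-C2, the delta variable segment Trdv4, the scavenger receptor family gene Cd163l1, the CD3 chain genes Cd3d, Cd3e and Cd3g, the costimulatory receptor gene Icos and the adhesion gene Cd2. The members were taken by gene symbol, and 10 of 10 were found among the 26357 genes of the deposited table. Every library came from total RNA of mice (Mus musculus), and the groups crossed an agent with the dosing route of a drug vehicle that held no compound (0 mpk). They were IL-23 with per os dosing, called oral here, IL-23 with intraperitoneal dosing, vehicle with oral dosing and vehicle with intraperitoneal dosing, with n = 4 libraries each. Strain, sex, age, tissue and time of harvest are not in the labels used here. The study's title names a psoriasis-like dermatitis driven by IL-23.

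A T cell carries either an alpha beta or a gamma delta antigen receptor, and both kinds need the CD3 chains to reach the cell surface and to signal. Mouse skin holds gamma delta T cells of more than one kind: resident cells of the epidermis, and dermal cells that respond to IL-23 by making IL-17 and IL-22. The constant gene Trdc marks gamma delta cells as a class, and Tcrg-C1 is the constant gene of some gamma chains only. The CD3 genes mark all T cells, and Icos and Cd2 are also found on activated or alpha beta T cells. In bulk RNA, fewer cells of a type and less RNA per cell cannot be told apart, and this holds for every value here.

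Total counts were 6381990 to 10078531 in the 8 IL-23 libraries and 7159325 to 14432930 in the 8 vehicle libraries. Levels are CPM, counts relative to the library total scaled with TMM factors, and 1 count was worth 0.106 to 0.166 CPM in IL-23 and 0.0654 to 0.132 CPM in vehicle libraries. The keratinocyte list (Krt1, Krt5, Krt10, Krt14 and 2 others) summed to 35230 CPM in IL-23 intraperitoneal library 28, to 44900 to 65380 CPM in the 7 other IL-23 libraries and to 19120 to 26850 CPM in vehicle libraries. Keratinocyte transcripts were abundant in every library, and library 28 lay below the other IL-23 libraries and above the vehicle libraries. The members were rare: outside IL-23 intraperitoneal library 28, the highest value of any of the 10 was 7.32 CPM (Cd163l1). Libraries are called by the number at the start of their titles.

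Library 28 stood apart from the other 15 for these genes, so the members' fold changes and the list counts are given with and without it. All 10 members were at their highest of 16 libraries in library 28, and 9 of 10 were at least 2-fold above every other library there. Of the 14671 genes tested, 14.3% were highest in library 28 and 2.24% were at least 2-fold above every other library. Library 28 held between 25.0% (Tcrg-C2) and 50.4% (Cd163l1) of a member's counts summed over the 8 IL-23 libraries. Other cell type lists moved with it. The interferon gamma response list (15 genes) summed to 3971 CPM in library 28, to 745 to 1073 CPM in the 7 other IL-23 libraries and to 505 to 669 CPM in vehicle libraries. Monocyte and macrophage genes (10 genes) summed to 1520 CPM in library 28, to 317 to 653 CPM in the other IL-23 libraries and to 220.0 to 414 CPM in vehicle libraries. Natural killer genes (9 genes) summed to 31.2 CPM in library 28, to 7.79 to 16.8 CPM in the other IL-23 libraries and to 4.06 to 9.23 CPM in vehicle libraries. None of the 9 was at 0 in library 28: the chemokine gene Ccl5 stood at 15.6 CPM there, against at most 3.55 CPM in the other IL-23 and 4.06 CPM in vehicle libraries, and Ncr1 had 2 counts. Of these 9 genes, 4 were at their highest in library 28. Klrd1 (6.23 CPM) and Nkg7 (3.58 CPM) lay there within the range of the other IL-23 libraries. The alpha beta T cell list (14 genes) summed to 195 CPM in library 28, to 164 to 257 CPM in the other IL-23 libraries and to 158 to 208 CPM in vehicle libraries, and 124 CPM of the library 28 sum was Bcl11b. Of its 14 genes, 8 were at their highest in library 28. Trac stood at 7.27 CPM there, against at most 1.78 CPM in the other IL-23 and 1.18 CPM in vehicle libraries. Cd4 stood at 8.19 CPM there, against at most 2.59 CPM in the other IL-23 and 2.86 CPM in vehicle libraries. The type 17 gamma delta list (14 genes) summed to 550 CPM in library 28, 215 CPM of it Ccr2. Its sum was 247 to 310 CPM in the other IL-23 and 298 to 359 CPM in vehicle libraries. The epidermal gamma delta list (15 genes) summed to 162 CPM in library 28, 80.3 CPM of it Ahr. Its sum was 87.7 to 118 CPM in the other IL-23 and 92.8 to 142 CPM in vehicle libraries. B and plasma cell genes (11 genes) summed to 21.8 CPM in library 28, against 5.84 to 11.6 CPM in the other IL-23 libraries and 7.91 to 13.7 CPM in vehicle libraries, and 19.2 CPM of it was Ighm. The B cell genes Ms4a1, Pax5, Igkc, Jchain, Cr2 and Fcer2a were at 0 counts in library 28. The part of these cell types in the members' values was not tested.

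**Figure D1:**
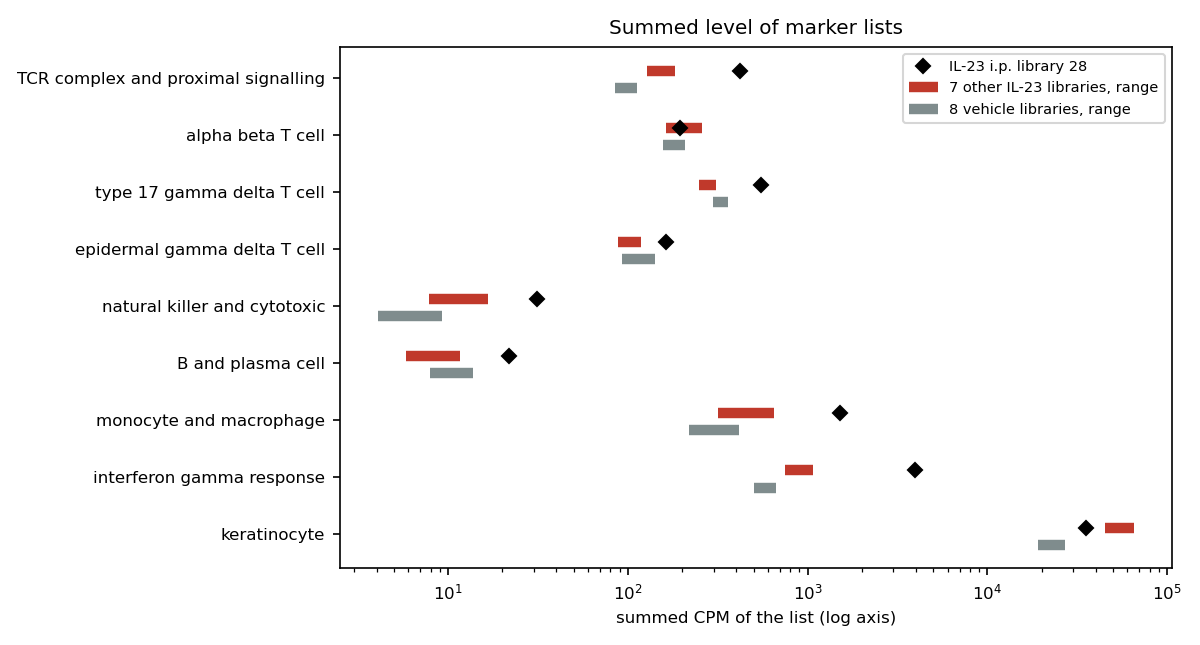
Summed CPM of 9 marker lists on a log axis, with IL-23 intraperitoneal library 28 as a black diamond, the range of the 7 other IL-23 libraries as a red bar and the range of the 8 vehicle libraries as a grey bar. Library 28 lies above both ranges for T cell receptor signalling (420.0 CPM), interferon gamma response (3971 CPM) and monocyte and macrophage genes (1520 CPM). The same holds for the type 17 (550 CPM) and epidermal (162 CPM) gamma delta, natural killer (31.2 CPM) and B and plasma cell (21.8 CPM) lists. Library 28 lies within the IL-23 range for the alpha beta T cell list (195 CPM). Bcl11b made up 124 CPM of that sum, while Trac and Cd4 were highest in library 28. For the keratinocyte list it lies between the ranges.

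A pair of the members are close copies of each other. Tcrg-C1 (gene ID 107573, chr13:19214103-19217024, plus strand) and Tcrg-C2 (gene ID 107574, chr13:19304649-19307551, minus strand) encode constant regions of alternative gamma chains. Over their GENCODE M21 transcripts on GRCm38, 157 of 875 stretches of 50 bases in Tcrg-C1 (17.9%) were also present in Tcrg-C2, and the longest shared run was 104 bases. Reads from such stretches cannot be assigned to one copy, and the sources used here do not say how the counting treated them. The single values of Tcrg-C1 and Tcrg-C2 are therefore uncertain.

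Trdc (gene ID 100123473, chr14:54142851-54148868, plus strand) encodes the constant region of every delta chain and is the most general mark of gamma delta T cells among the members. It did not pass the test in either route. In IL-23 oral libraries it had 1.48, 4.71, 2.77 and 2.92 CPM, against 2.44, 4.73, 2.55 and 4.67 CPM in vehicle oral libraries. In IL-23 intraperitoneal libraries it had 14.0 CPM in library 28 and 4.87, 4.22 and 1.82 CPM in the others, against 5.10, 5.72, 4.50 and 5.01 CPM in vehicle intraperitoneal libraries. Library 28 alone lay above the vehicle range, and no other IL-23 library of either route did. The log2 fold change was -0.27 ± 0.46 in the oral route (SE, edgeR quasi-likelihood test, adjusted p = 0.632) and 0.32 ± 0.43 in the intraperitoneal route (adjusted p = 0.53). Without library 28 the intraperitoneal value was -0.44 ± 0.34 (adjusted p = 0.276), and the oral value was -0.23 ± 0.32. With the mean of the monocyte and macrophage list added to the fit, a list of which 6 of 10 genes themselves rose over both routes, the oral value was -1.17 (adjusted p = 0.0171). Here and for the other members, such a fit can take out part of an IL-23 effect that the list shares. Trdc overlaps Gm43434 and Trdv5 on the opposite strand, and the sources used here do not say whether strand was used in counting.

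Tcrg-C1 likewise did not pass. It had 0.164, 1.57, 1.06 and 0.634 CPM in IL-23 oral libraries and 0.609, 0.9999, 0.477 and 1.22 CPM in vehicle oral libraries, and the groups overlapped. In the intraperitoneal route it had 5.54 CPM in library 28 and 1.78, 0.649 and 2.32 CPM in the other IL-23 libraries, against 2.22, 1.03, 0.400 and 0.792 CPM in vehicle libraries. The log2 fold change was 0.11 ± 0.67 in the oral route (adjusted p = 0.894) and 1.16 ± 0.56 in the intraperitoneal route (edgeR, adjusted p = 0.0832). Without library 28 it was 0.15 ± 0.57 and 0.43 ± 0.55. The intraperitoneal value passed without IL-23 library 25 (adjusted p = 0.0272) or vehicle library 49 (adjusted p = 0.0221). The oral sign turned to -0.08 with plain library size in place of TMM factors.

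Tcrg-C2 and Trdv4 were below the count filter, with 52 and 50 counts over the 8 IL-23 libraries and 38 and 50 counts over the 8 vehicle libraries, and their tests come from a fit with no filter. Tcrg-C2 had 1.5, 0.476, 0.811 and 1.49 CPM in IL-23 intraperitoneal libraries, with library 28 first, against 0.327, 0.159, 0.200 and 0.660 CPM in vehicle intraperitoneal libraries. In all, 3 of the 4 IL-23 libraries lay above all 4 vehicle libraries. The log2 fold change was 1.74 ± 0.62 (edgeR, adjusted p = 0.0281), and without library 28 it was 1.49 ± 0.69 (adjusted p = 0.0865). The call was also lost without IL-23 library 61 or vehicle library 59 or 67. In the oral route it was 0.29 ± 0.60, and 0.30 ± 0.60 without library 28, with 0.164 to 1.33 CPM in IL-23 libraries and 0.239 to 1.01 CPM in vehicle libraries. Trdv4 (gene ID 100114901, chr14:54074905-54075515) is a delta variable segment used by gamma delta T cells of mouse epidermis, but not by them alone. The segment overlaps Gm30275 on the opposite strand. It had 2.88 CPM in library 28 and 0, 0.649 and 0.166 CPM in the other IL-23 intraperitoneal libraries, against 0.458, 0.715, 0.300 and 0.396 CPM in vehicle intraperitoneal libraries. Its log2 fold change there was 1.03 ± 0.74 with library 28 and -0.90 ± 0.79 without it (adjusted p = 0.281 and 0.392), and its oral value was 0.04 ± 0.75 with library 28 and 0.04 ± 0.56 without it.

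The other gamma and delta receptor segments gave few counts. Of 21 segments, 9 had no count in any library and none passed the count filter. Tcrg-V5 had 24 counts in IL-23 libraries, 2 of them in library 28, and 25 in vehicle libraries. Tcrg-C4 had 35 counts in IL-23 libraries, 12 of them in library 28, and 35 in vehicle libraries. Tcrg-V6 had 10 counts in IL-23 libraries, 9 of them in library 28, and 6 in vehicle libraries. Tcrg-V4 had 11 counts in IL-23 libraries, 2 of them in library 28, and 5 in vehicle libraries.

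Cd163l1 (gene ID 244233, chr7:140218267-140231145, plus strand) encodes a scavenger receptor cysteine-rich protein found on gamma delta T cells. It had 3.78, 6.40, 4.998 and 5.84 CPM in IL-23 oral libraries, against 2.44, 2.20, 3.18 and 4.26 CPM in vehicle oral libraries, so 3 of 4 IL-23 libraries were above all vehicle libraries. It had 33.3 CPM in library 28 and 5.11, 6.65 and 5.14 CPM in the other IL-23 intraperitoneal libraries, against 7.32, 3.10, 2.40 and 3.96 CPM in vehicle intraperitoneal libraries. The vehicle library at 7.32 CPM (library 49) was above every IL-23 library other than library 28. The call changed route with library 28. With it, the intraperitoneal log2 fold change was 1.58 ± 0.52 (edgeR, adjusted p = 0.0145) and the oral one 0.81 ± 0.56 (adjusted p = 0.213). Without it, the intraperitoneal value was 0.40 ± 0.33 (adjusted p = 0.296) and the oral one 0.85 ± 0.31 (adjusted p = 0.0232). The intraperitoneal call was also lost with limma-voom (adjusted p = 0.0506) or only the groups compared (adjusted p = 0.0585), and a fit of only the oral groups gave an oral call (adjusted p = 0.0107). With all libraries DESeq2 gave 0.85 ± 0.51 in the oral and 1.60 ± 0.50 in the intraperitoneal route, but no p-value for this gene. Without library 28 it gave 0.86 ± 0.32 (DESeq2, adjusted p = 0.0168) and 0.43 ± 0.34 (adjusted p = 0.3). With the macrophage list mean in the fit the values were -0.38 in the oral and -0.13 in the intraperitoneal route. Its relative 5830411N06Rik, another family member found on gamma delta T cells, shared no stretch of 50 bases with it, and it rose over both routes with 3.74 ± 1.68 CPM in IL-23 and 1.16 ± 0.68 CPM in vehicle libraries (SD, n = 8 each; log2 fold change 1.70, and 1.67 without library 28).

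**Figure D2:**
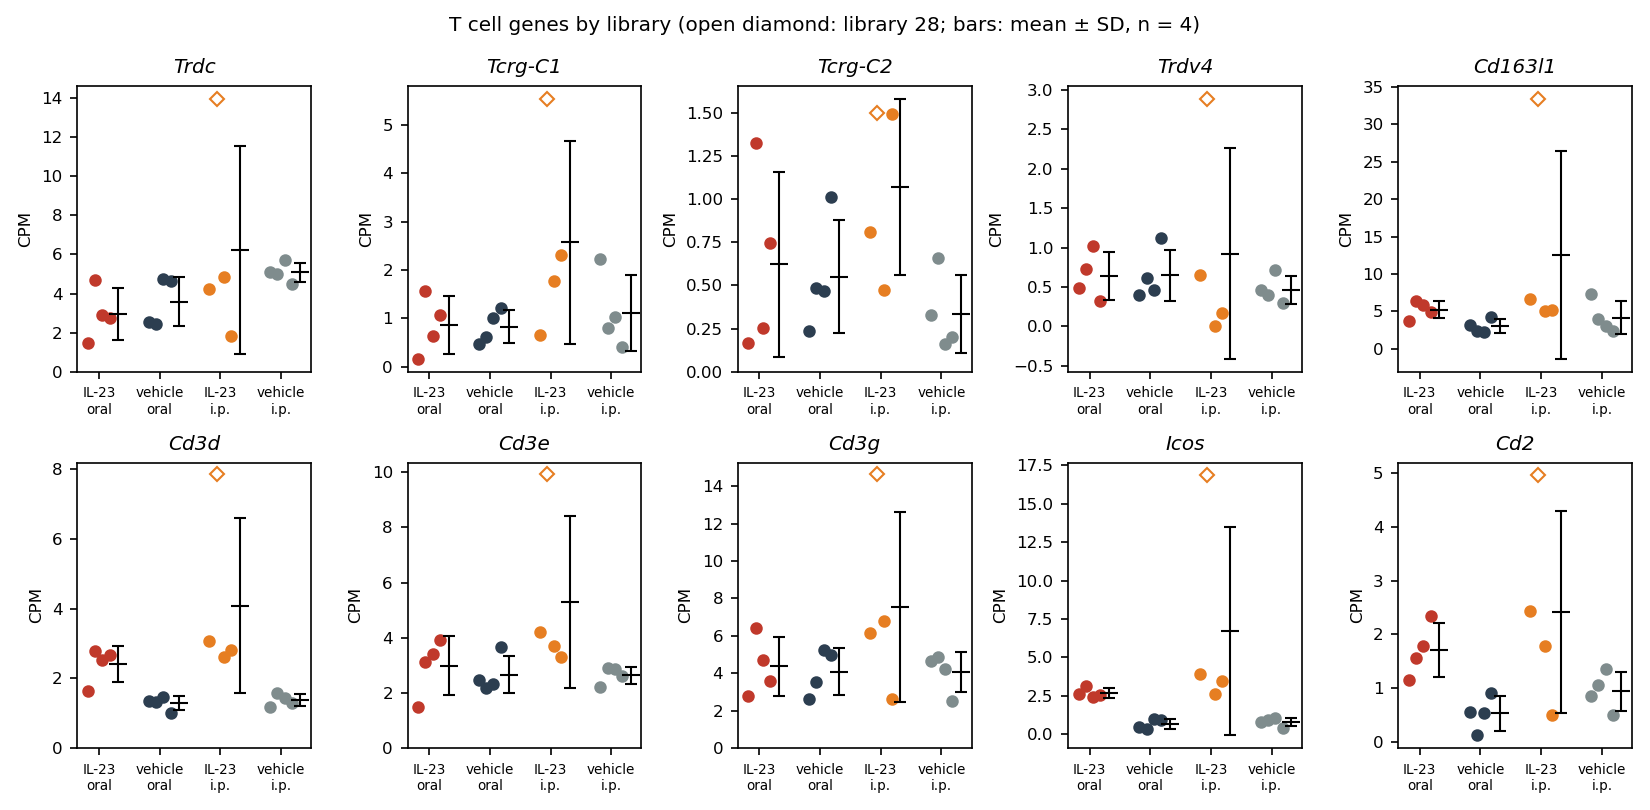
CPM of each of the 10 genes in every library, with IL-23 left of vehicle within the oral and the intraperitoneal (i.p.) route, library 28 as an open diamond and black bars for mean ± SD (n = 4). Icos and Cd3d are higher in all 8 IL-23 libraries than in any vehicle library, Trdc overlaps between the agents in both routes, and library 28 is the highest library in all 10 panels.

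The CD3 genes lie together on chromosome 9: Cd3g (gene ID 12502, chr9:44969572-44980431, minus strand), Cd3d (gene ID 12500, chr9:44981786-44987339, plus strand) and Cd3e (gene ID 12501, chr9:44998740-45009627, minus strand). Cd3g and Cd3d are transcribed away from each other from starts 1355 bases apart. The 250 bases before each start in the RefSeq promoter table are printed because the 3 genes are neighbours. For Cd3e that start lies inside the gene span given above, so its window overlaps the gene. The sequences are from RefSeq on GRCm38.p6 (chr9:44980432-44980681, chr9:44981536-44981785 and chr9:45009612-45009861), 5′ to 3′ on the strand of the gene, and capitals mark the E-box letters CANNTG, which read the same on both strands.
Cd3g: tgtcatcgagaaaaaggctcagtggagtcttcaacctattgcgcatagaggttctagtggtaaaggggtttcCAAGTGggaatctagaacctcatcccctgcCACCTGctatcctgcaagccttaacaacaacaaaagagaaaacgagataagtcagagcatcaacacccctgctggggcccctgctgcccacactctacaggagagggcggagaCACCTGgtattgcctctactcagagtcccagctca
Cd3d: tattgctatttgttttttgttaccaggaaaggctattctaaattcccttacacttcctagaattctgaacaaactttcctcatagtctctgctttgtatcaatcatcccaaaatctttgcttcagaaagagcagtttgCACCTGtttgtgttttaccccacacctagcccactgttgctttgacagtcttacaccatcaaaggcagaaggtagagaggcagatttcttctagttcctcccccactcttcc
Cd3e: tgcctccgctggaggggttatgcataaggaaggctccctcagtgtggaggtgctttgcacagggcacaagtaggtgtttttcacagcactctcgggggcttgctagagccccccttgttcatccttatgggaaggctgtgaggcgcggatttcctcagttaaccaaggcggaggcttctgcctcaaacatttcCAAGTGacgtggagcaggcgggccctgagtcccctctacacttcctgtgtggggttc
The E-box letters occurred 3 times before Cd3g and once each before Cd3d and Cd3e, and at least once in 66.2% of 32851 promoters of this length. The letters TTCNNNGAA, searched as a STAT motif on both strands, occurred once before Cd3d and in neither other CD3 window, and in 7.0% of all promoters. AGGTCA (ROR half-site) and TGTGGT (RUNX) were in none of the 3 windows and in 14.0% of all promoters each. A match describes letters only, and the data hold no measure of binding.

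Cd3d, the delta chain of CD3, rose in both routes. It had 1.64, 2.78, 2.66 and 2.54 CPM in IL-23 oral libraries, against 1.34, 1.47, 1.35 and 1.01 CPM in vehicle oral libraries. It had 7.84 CPM in library 28 and 2.62, 3.08 and 2.82 CPM in the other IL-23 intraperitoneal libraries, against 1.18, 1.43, 1.30 and 1.58 CPM in vehicle intraperitoneal libraries. The lowest of the 8 IL-23 libraries was above the highest of the 8 vehicle libraries. The log2 fold change was 0.89 ± 0.35 in the oral route (edgeR, adjusted p = 0.0321) and 1.61 ± 0.33 in the intraperitoneal route (adjusted p = 0.000523). Without library 28 it was 0.93 ± 0.24 and 1.07 ± 0.26 (adjusted p = 0.00268 and 0.00178). With the macrophage list mean in the fit both calls were lost, at 0.19 in the oral (adjusted p = 0.672) and 0.77 in the intraperitoneal route (adjusted p = 0.0517). The oral call was lost with plain library size (adjusted p = 0.095). It was also lost without IL-23 oral library 24, 26 or 68, or without vehicle oral library 4, 27 or 51, with an adjusted p of 0.051 to 0.0732.

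Cd3e and Cd3g encode the epsilon and gamma chains of the same complex. Cd3e had 1.48, 3.14, 3.94 and 3.43 CPM in IL-23 oral libraries and 2.19, 2.33, 2.47 and 3.65 CPM in vehicle oral libraries. The groups overlapped, and the log2 fold change was 0.20 ± 0.35 (adjusted p = 0.629), and 0.24 ± 0.26 without library 28. In the intraperitoneal route it had 9.92 CPM in library 28 and 3.69, 4.22 and 3.32 CPM in the other IL-23 libraries, against 2.22, 2.86, 2.60 and 2.90 CPM in vehicle libraries, with no overlap. That log2 fold change was 1.03 ± 0.34 (edgeR, adjusted p = 0.0138), and 0.53 ± 0.28 without library 28 (adjusted p = 0.112). The Cd3e call was also lost with plain library size (adjusted p = 0.0507) and with the macrophage list mean in the fit (0.10, adjusted p = 0.776). Cd3g had 2.79 to 6.40 CPM in IL-23 oral libraries and 2.62 to 5.27 CPM in vehicle oral libraries, and its log2 fold change was 0.10 ± 0.40 (adjusted p = 0.84), and 0.13 ± 0.31 without library 28. In the intraperitoneal route Cd3g had 14.7 CPM in library 28 and 6.78, 6.16 and 2.65 CPM in the other IL-23 libraries, against 4.64, 4.21, 2.50 and 4.88 CPM in vehicle libraries. That log2 fold change was 0.92 ± 0.39 (edgeR, adjusted p = 0.0485), and 0.40 ± 0.34 without library 28 (adjusted p = 0.319). The Cd3g call was lost without any 1 of 11 libraries, namely IL-23 libraries 26, 28, 31 and 68 and vehicle libraries 27, 33, 49, 50, 51, 59 and 67, and with plain library size (adjusted p = 0.128). It was also lost with upper-quartile factors, limma-voom, only the groups compared and the macrophage list mean in the fit, with an adjusted p of 0.0774 to 0.862. Cd3e overlaps Gm48719 on the opposite strand and Gm48720 on the same strand. With plain library size the oral signs of Cd3e and Cd3g turned, to -0.001 and -0.09.

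Icos (gene ID 54167, chr1:60977927-61000320, plus strand), the inducible costimulator of activated T cells, had the largest fold change of the members in both routes. It had 2.63, 3.14, 2.55 and 2.41 CPM in IL-23 oral libraries, against 0.365, 0.9999, 0.477 and 0.913 CPM in vehicle oral libraries. It had 16.8 CPM in library 28 and 2.62, 3.89 and 3.48 CPM in the other IL-23 intraperitoneal libraries, against 0.785, 1.03, 0.400 and 0.924 CPM in vehicle intraperitoneal libraries. Icos overlaps Gm37039 on the same strand. Each of the 8 IL-23 libraries was more than 2-fold above the highest vehicle library. The log2 fold change was 1.90 ± 0.58 in the oral route (edgeR, adjusted p = 0.00859) and 3.09 ± 0.54 in the intraperitoneal route (adjusted p = 0.000109). Without library 28 it was 1.93 ± 0.32 and 2.06 ± 0.34 (adjusted p = 4.83e-05 and 4.99e-05). With the macrophage list mean in the fit the oral call was lost (0.79, adjusted p = 0.107) and the intraperitoneal one was not (1.56, adjusted p = 0.00481).

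Cd2 (gene ID 12481, chr3:101275899-101287939, minus strand), a T and natural killer cell adhesion receptor, rose in both routes with all libraries. It had 1.15, 1.57, 2.34 and 1.78 CPM in IL-23 oral libraries, against 0.122, 0.533, 0.557 and 0.913 CPM in vehicle oral libraries, with no overlap. It had 4.96 CPM in library 28 and 1.78, 2.43 and 0.497 CPM in the other IL-23 intraperitoneal libraries, against 0.850, 1.35, 0.500 and 1.06 CPM in vehicle intraperitoneal libraries. The IL-23 library at 0.497 CPM (library 61, 3 counts) was level with the lowest vehicle library of its route (library 67, 5 counts). The log2 fold change was 1.65 ± 0.55 in the oral route (edgeR, adjusted p = 0.0155) and 1.39 ± 0.50 in the intraperitoneal route (adjusted p = 0.0227). With library 28 left out, the intraperitoneal value was 0.76 ± 0.48 (adjusted p = 0.176) and the oral value 1.69 ± 0.46 (adjusted p = 0.00391). The intraperitoneal call was also lost without vehicle library 49 (adjusted p = 0.0546) or 67 (adjusted p = 0.0651), and with plain library size, only the groups compared, limma-voom or the macrophage list mean in the fit (adjusted p = 0.052, 0.0537, 0.0807 and 0.529). The oral call was lost with that list mean (0.86, adjusted p = 0.185) and without IL-23 oral library 68 (adjusted p = 0.0518).

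In the oral route 3 of the 8 members that passed the filter rose (Cd3d, Icos and Cd2) and 0 fell, where 29.2% of all 14671 genes rose and 63.3% were called in either direction. In the intraperitoneal route 6 of 8 rose (Cd163l1, Cd3d, Cd3e, Cd3g, Icos and Cd2) and 0 fell, where 30.8% of all genes rose and 61.7% were called. Members had to reach the count filter to be tested, and the lower-count Tcrg-C2 and Trdv4 are not in these counts. The median log2 fold change of the 8 was 0.51 in the oral and 1.28 in the intraperitoneal route, beside -0.06 and -0.02 for all genes tested. Without library 28, 9 members passed the filter. Then 4 of 9 rose in the oral route (Cd163l1, Cd3d, Icos and Cd2), where 32.1% of all genes rose, and 2 of 9 in the intraperitoneal route (Cd3d and Icos), where 30.5% did. The medians over the 9 were 0.32 and 0.53. The oral share of members that rose was thus close to that of all genes, and the intraperitoneal share was above it with library 28 and below it without. Leaving out IL-23 oral library 68 reduced the oral count to 1 (Icos). As the mean of both routes, 5 of 8 members rose, where 34.9% of all genes rose, and 4 of 9 without library 28, where 36.1% did.

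**Figure D3:**
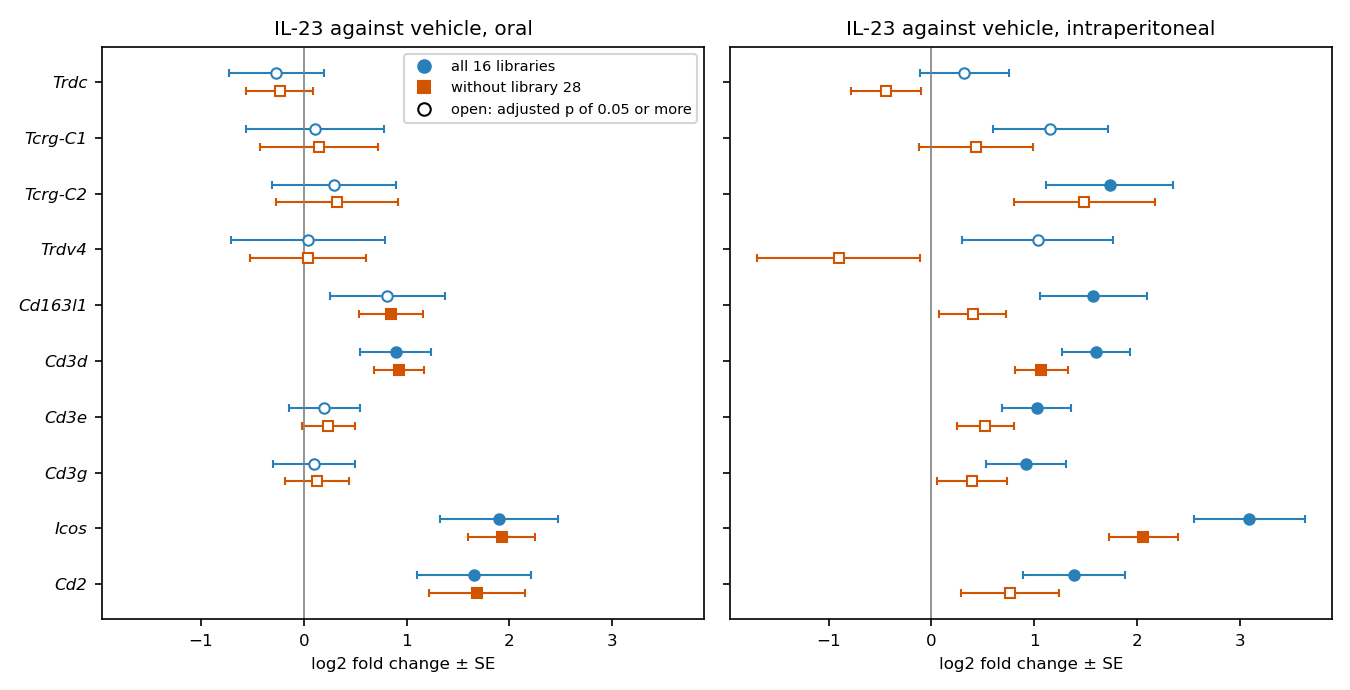
Log2 fold change of IL-23 against vehicle with its SE for the 10 genes in each route, from all 16 libraries (blue circles) and without library 28 (orange squares), filled where the adjusted p was below 0.05. Genes below the count filter in a fit are shown from the fit with no filter. Icos and Cd3d stay filled in all 4 positions, and Trdc and Trdv4 in the intraperitoneal route lie on opposite sides of 0 with and without library 28.

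Every IL-23 library lay above every vehicle library for 3 of 10 members in the oral route (Cd3d, Icos and Cd2), where 27.9% of the genes tested did so. The same held for 3 of 10 in the intraperitoneal route (Cd3d, Cd3e and Icos), where 25.1% did. Over both routes together it held for Cd3d and Icos, 2 of 10 members, where 19% of the genes tested did so. The shares are over the 14671 genes that passed the count filter. The 10 members include Tcrg-C2 and Trdv4, which did not pass it and are not among the genes named.

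No member passed the test of the difference between routes, with 0 of 8 at an unadjusted p below 0.05 by edgeR or, of 9, by DESeq2. DESeq2 gave no p-value for Cd163l1. The differences, intraperitoneal minus oral log2 fold change, ran from -0.26 ± 0.73 for Cd2 to 1.20 ± 0.81 for Icos. Without library 28 the difference was 0.14 ± 0.49 for Icos and -0.20 ± 0.47 for Trdc. Over all 14671 genes edgeR called 0, with 796 at an unadjusted p below 0.05, and DESeq2 called 1.

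The makeup of the receptor transcripts is given next as counts per CD3 count, the sum of Cd3d, Cd3e and Cd3g counts in the same library, a ratio that needs no scaling factor. It is a description with no test, and it sets genes of different length side by side, so its values compare libraries and not genes. The CD3 sum was 36 to 102 counts in IL-23 oral libraries and 58 to 136 in vehicle oral libraries. It was 53 to 281 counts in IL-23 intraperitoneal libraries and 64 to 123 in vehicle intraperitoneal libraries. Trdc stood at 0.250, 0.382, 0.271 and 0.274 counts per CD3 count in IL-23 oral libraries, against 0.345, 0.522, 0.395 and 0.484 in vehicle oral libraries, with 1 IL-23 library inside the vehicle range. It stood at 0.431 in library 28 and 0.373, 0.313 and 0.207 in the other IL-23 intraperitoneal libraries, against 0.634, 0.673, 0.703 and 0.535 in vehicle intraperitoneal libraries, all of them higher. Library 28, which had the highest Trdc level, thus had fewer Trdc counts per CD3 count than any vehicle library of its route.

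Icos stood at 0.294 ± 0.101 counts per CD3 count in IL-23 oral and 0.0827 ± 0.0254 in vehicle oral libraries, and at 0.351 ± 0.138 in IL-23 intraperitoneal and 0.0950 ± 0.0243 in vehicle intraperitoneal libraries (SD, n = 4 each). The lowest IL-23 value, 0.200, was above the highest vehicle value, 0.122. Cd3d made up 0.250 ± 0.023 of the CD3 counts in IL-23 oral and 0.167 ± 0.045 in vehicle oral libraries, and 0.248 ± 0.052 in IL-23 intraperitoneal and 0.172 ± 0.023 in vehicle intraperitoneal libraries. The alpha chain constant gene Trac stood at 0.0793 ± 0.0397 in IL-23 oral and 0.0627 ± 0.0393 in vehicle oral libraries, and at 0.164 ± 0.045 in IL-23 intraperitoneal and 0.0936 ± 0.0383 in vehicle intraperitoneal libraries.

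Cd247 encodes the zeta chain that completes the receptor complex, and it is named here after its values were seen. It stood at 0.216 ± 0.066 counts per CD3 count in IL-23 oral and 0.493 ± 0.051 in vehicle oral libraries, and at 0.243 ± 0.037 in IL-23 intraperitoneal and 0.520 ± 0.116 in vehicle intraperitoneal libraries. The highest IL-23 value, 0.294, was below the lowest vehicle value, 0.439. Its level was 2.23 ± 1.16 CPM in IL-23 oral and 3.92 ± 0.46 CPM in vehicle oral libraries (log2 fold change -0.78 ± 0.35, edgeR, adjusted p = 0.062, and 0.0338 without library 28). It was 3.90 ± 1.91 CPM in IL-23 intraperitoneal and 4.20 ± 1.09 CPM in vehicle intraperitoneal libraries (log2 fold change -0.09 ± 0.33, which did not pass, and -0.49 ± 0.32, adjusted p = 0.188, without library 28).

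**Figure D4:**
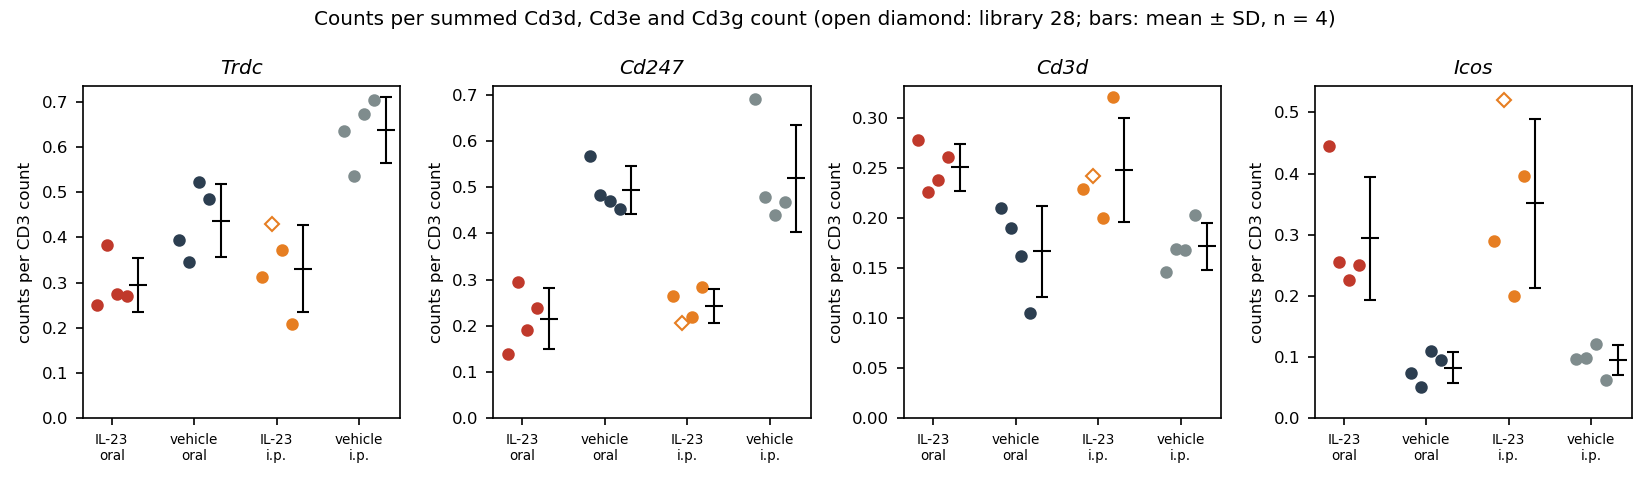
Counts of Trdc, Cd247, Cd3d and Icos per summed Cd3d, Cd3e and Cd3g count in each library, with IL-23 left of vehicle in each route, library 28 as an open diamond and black bars for mean ± SD (n = 4). Cd247 is lower and Icos higher in every IL-23 library than in any vehicle library, and Trdc is lower in all 4 IL-23 intraperitoneal libraries than in vehicle intraperitoneal libraries.

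Levels per length put the members on 1 scale, as mean CPM per kilobase of annotated exon (GENCODE M21). In the 8 vehicle libraries the order was Trdv4 (1.26 ± 0.59), Cd3g (1.25 ± 0.33), Trdc (1.12 ± 0.31), Tcrg-C1 (1.05 ± 0.63), Cd163l1 (0.937 ± 0.435), Cd3d (0.734 ± 0.097), Cd3e (0.650 ± 0.119), Tcrg-C2 (0.486 ± 0.312), Cd2 (0.422 ± 0.220) and Icos (0.215 ± 0.081). No neighbours in this order differed by more than the larger of their SDs. In the 7 IL-23 libraries other than library 28 the order was Cd3g (1.45 ± 0.53), Cd3d (1.43 ± 0.25), Cd163l1 (1.41 ± 0.25), Tcrg-C1 (1.26 ± 0.82), Trdv4 (1.08 ± 0.79), Cd2 (0.948 ± 0.386), Icos (0.863 ± 0.163), Trdc (0.842 ± 0.354), Tcrg-C2 (0.824 ± 0.557) and Cd3e (0.812 ± 0.218), and the same was true of its neighbours.

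The rest of the receptor pathway was read from lists that were drawn up with earlier results of these data known, and whose counts are descriptions. Of 21 genes of the T cell receptor complex and its proximal signalling, 15 passed the filter. In the oral route 8 rose and 0 fell, where 29.2% of all genes rose, and in the intraperitoneal route 10 rose and 0 fell, where 30.8% rose. Without library 28 the counts were 9 and 2 in the oral route, where 32.1% of all genes rose, and 7 and 0 in the intraperitoneal route, where 30.5% rose. The median log2 fold change of the 15 was 1.05 in the oral and 1.49 in the intraperitoneal route, and 1.08 and 0.88 without library 28. Over both routes the adaptor gene Lcp2 (SLP-76) rose, with 17.1 ± 12.3 CPM in IL-23 and 4.14 ± 1.22 CPM in vehicle libraries (SD, n = 8 each; log2 fold change 2.03, and 1.67 without library 28). The exchange factor gene Vav1 rose, with 18.3 ± 8.30 CPM in IL-23 and 4.85 ± 0.84 CPM in vehicle libraries (log2 fold change 1.93, and 1.68 without library 28). Both are also expressed by myeloid cells, whose list values are given above and whose part was not tested. The T cell surface gene Cd6 rose, with 2.15 ± 3.17 CPM in IL-23 and 0.229 ± 0.090 CPM in vehicle libraries (log2 fold change 2.81, and 2.07 without library 28). The small GTPase gene Rhoh rose by 2.43 on the log2 scale, and by 2.38 without library 28.

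Among 14 genes of alpha beta T cells, 9 passed the filter. In the oral route 2 rose and 2 fell (29.2% of all genes rose), and in the intraperitoneal route 4 rose and 2 fell (30.8%). With library 28 left out, the counts were 3 and 2 in the oral and 0 and 3 in the intraperitoneal route (32.1% and 30.5% of all genes rose). Over all 14671 genes tested, 4992 fell in the oral and 4537 in the intraperitoneal route. Without library 28, 5005 and 4510 of 14832 genes fell. Trac rose as the mean of both routes, with 1.92 ± 2.22 CPM in IL-23 and 0.644 ± 0.349 CPM in vehicle libraries (edgeR, log2 fold change 1.26, adjusted p = 0.018, and 0.81, adjusted p = 0.0458, without library 28). Library 28 held 63 of its 124 counts in IL-23 libraries. Without that library 0 genes of the list, Trac included, rose in the intraperitoneal route. Trbc1, a beta constant gene, had 1.76 ± 1.10 CPM in IL-23 and 0.964 ± 0.403 CPM in vehicle libraries (log2 fold change 0.79, adjusted p = 0.0377, and 0.56, adjusted p = 0.106, without library 28). The inhibitory receptor gene Ctla4 rose (log2 fold change 1.56, and 0.95 without library 28), and the transcription factor gene Lef1, which skin epithelium also expresses, fell by 1.73, and by 1.72 without library 28.

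Among 14 genes of type 17 gamma delta T cells, 11 passed, of which 3 rose and 4 fell in the oral route (29.2% of all genes rose) and 6 rose and 4 fell in the intraperitoneal route (30.8%). Leaving out library 28 gave 5 and 4 in each route (32.1% of all genes rose in the oral and 30.5% in the intraperitoneal route). Il22, a cytokine that acts on keratinocytes, had 500 counts in the 8 IL-23 libraries, 128 of them in library 28, and 1 count in the 8 vehicle libraries. Il17a had 64 counts in IL-23 libraries, 37 of them in library 28, and 0 counts in vehicle libraries. The transcription factor gene Zbtb16, which other cells also express, fell, with 4.68 ± 0.67 CPM in IL-23 and 16.6 ± 3.69 CPM in vehicle libraries (log2 fold change -1.81, and -1.84 without library 28). Of 16 gene names for epidermal gamma delta T cells, 15 were found and 10 passed: 3 rose and 1 fell in the oral route (29.2% of all genes rose), and 5 rose and 1 fell in the intraperitoneal route (30.8%). With library 28 left out 11 passed, and 5 rose and 2 fell in each route (32.1% and 30.5% of all genes rose). Gzmb, a granzyme gene, had 340 counts in IL-23 libraries, 202 of them in library 28, and 19 in vehicle libraries. Gzmc, another granzyme gene, had 106 counts in IL-23 libraries, 8 of them in library 28, and 13 in vehicle libraries. Others of this list had fewer counts in IL-23 than in vehicle libraries, whose totals ran higher. Ccr10 had 19 against 86, Xcl1 8 against 42, Itgae 295 against 559 and Ahr 4222 against 9127. Amica1, the junctional adhesion gene whose product binds the keratinocyte protein of Cxadr, rose, with 6.80 ± 2.17 CPM in IL-23 and 2.67 ± 0.96 CPM in vehicle libraries (log2 fold change 1.37, and 1.22 without library 28). Cxadr also rose, with 513 ± 63.9 CPM in IL-23 and 209 ± 31.9 CPM in vehicle libraries (log2 fold change 1.30, and 1.37 without library 28).

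Of 21 costimulatory partners and relatives found, 16 passed, of which 8 rose and 0 fell in the oral route (29.2% of all genes rose) and 10 rose and 0 fell in the intraperitoneal route (30.8%). With library 28 left out the counts were 10 and 0 in the oral and 5 and 1 in the intraperitoneal route (32.1% and 30.5% of all genes rose). Cd80, a ligand of CD28 and CTLA-4, rose over both routes, with 2.15 ± 0.64 CPM in IL-23 and 0.410 ± 0.258 CPM in vehicle libraries (log2 fold change 2.33, and 2.24 without library 28). Tnfrsf9, which encodes the activation receptor 4-1BB, rose with 3.05 ± 1.19 CPM in IL-23 and 0.738 ± 0.233 CPM in vehicle libraries (log2 fold change 2.03, and 1.90 without library 28). Pdcd1lg2, a ligand of PD-1, rose by 2.06 on the log2 scale, and by 2.01 without library 28. Other genes of the list had fewer counts in IL-23 than in vehicle libraries, whose totals ran higher. Cd28, also in the alpha beta list, had 244 counts in IL-23 libraries, 73 of them in library 28, and 534 in vehicle libraries. Cd27 had 26 against 53, Lag3 172 against 275 and Tnfrsf4 455 against 769.

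The genes whose levels were most like those of Trdc over the 15 libraries other than library 28 were Sema4f, Dtx1, Lrmp, Cd96 and Umad1. Their root mean square difference from Trdc in centred log2 CPM was 0.27, 0.32, 0.34, 0.35 and 0.36, against a median of 0.72 over the 8635 genes compared. Cd96 is itself a T and natural killer cell receptor gene of the epidermal list. For the mean of Cd3d, Cd3e and Cd3g the nearest were Akirin1 (0.17), Lpxn (0.18), Polr3d (0.19), Urb1 (0.19) and Isg20l2 (0.20), against a median of 0.52 over 11999 genes. Libraries share their depth and the agent, so this likeness is a description.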

How the data were processed

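The deposited table holds raw read counts per gene, whole numbers with differing totals, for 16 libraries of 4 groups. Per the labels' protocols, the library kit was TruSeq Stranded Total RNA and the sequencer an Illumina HiSeq. The submitters' processing notes name FastQC, STAR, featureCounts, Subread 1.5.0 and the build GRCm38. For the annotation release, the strand setting and reads with several matches, the choice is not given in the sources used here. Near-identical genes can therefore share or lose reads.

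Counts were fitted in R 4.3.3 with edgeR 4.0.16 (TMM factors, and quasi-likelihood tests on 4 group means with 12 residual degrees of freedom) after filterByExpr at a minimum count of 10 had left 14671 genes. Tests were 2-sided. P-values were adjusted by Benjamini-Hochberg over every tested gene, with calls at adjusted values below 0.05. Each SE is the size of the log2 fold change divided by the root of its F statistic. CPM were computed from the counts with TMM factors, and means are given ± SD. Members below the filter came from a fit of 20799 genes with no filter. The fits were tested on simulated data. Nothing says whether libraries came from separate animals, so p-values measure the spread between these libraries, which may be technical. No replicate number is shared between groups, so nothing was paired. The reads carry no molecular identifiers.

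The members, 13 gene lists, tests and alternatives were chosen with earlier results of these data known. Named genes are the members, up to 4 genes per list with the largest change among those called over both routes, and the nearest genes by the root mean square difference of log2 CPM (prior count 2). Cd247 and the genes given as counts only were named after their values were seen. Shared stretches were counted in GENCODE M21 transcripts, and printed sequences are RefSeq promoters, which held 4 of the 10 members. A few results are not reported here. Alternatives were other scaling factors, DESeq2 1.42.0, limma-voom (limma 3.58.1), no filter, a filter of 1 CPM in 4 or more libraries, a macrophage covariate, only the groups compared and leaving out each library.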

Additional observations from a re-analysis of the deposited data

Results flagged for a closer look

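In 4 of 40 groups of 4 libraries examined, 1 library lay farther from the others than Dixon's critical value for the gap over the range allows. That value is set so that chance passes it in about 1 in 20 groups. Library 28 had been set apart beforehand, with earlier results of these data known. The count of groups is therefore a description and not a test. All 4 were IL-23 intraperitoneal library 28, and the library was high each time. Cd163l1 stood at 33.3 CPM there, against 5.11 to 6.65 CPM in the 3 other libraries of the group. Icos stood at 16.8 CPM, against 2.62 to 3.89 CPM. Cd3e stood at 9.92 CPM, against 3.32 to 4.22 CPM, and Cd3d at 7.84 CPM, against 2.62 to 3.08 CPM. The 4 share 1 library and are not independent of each other.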

How the results depend on the processing

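Across all alternatives, 760 of 874 member values kept direction and side of the threshold, 65 lost the call, 13 gained it and 36 changed sign. No paired analysis was possible because no replicate number is shared between groups. The oral count of members called, 3 of 8 and all higher, was 1 to 4 when single libraries were left out. With the mean of the monocyte and macrophage list as a covariate it was 1, with 0 that rose and Trdc lower. The intraperitoneal count, 6 of 8, was 2 to 8 over single libraries left out, 3 with plain library size, limma-voom or only the groups compared, and 1 with the covariate (Icos, higher). It was 2 with DESeq2 and 2 with no filter when library 28 was left out, alternatives chosen after seeing the data. The mean count, 5, was 2 with the covariate, Icos higher and Trdc lower. Of the covariate's list, 6 of 10 genes themselves rose over both routes, so this fit can take out part of an IL-23 effect. The causes were not tested. The plain library size shifted the median log2 fold change of all genes to -0.26 (oral) and -0.23 (intraperitoneal), with 2942 calls higher and 6553 lower against 4288 and 4992 (oral), and 2871 and 6248 against 4519 and 4537 (intraperitoneal).

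Signs changed as follows (log2). With plain library size: oral Tcrg-C1 -0.0784, Cd3e -0.001 and Cd3g -0.0943, and mean Trdc -0.1655. With limma-voom: oral Tcrg-C1 -0.0512 and mean Trdc -0.1268. With upper-quartile factors: mean Trdc -0.0587. With the covariate: oral Tcrg-C1 -0.9822, Cd163l1 -0.3814, Cd3e -0.5628 and Cd3g -0.5847, intraperitoneal Trdc -0.839, Tcrg-C1 -0.2995 and Cd163l1 -0.1322, and mean Trdc -1.0031, Tcrg-C1 -0.6408, Cd163l1 -0.2568, Cd3e -0.2291 and Cd3g -0.2481. Without library 28: intraperitoneal Trdc -0.4349 with DESeq2 and -0.4375 with no filter, and Trdv4 -0.8888 and -0.9006. Over single libraries left out, oral Tcrg-C1 ran from -0.3083 to 0.3948, Tcrg-C2 from -0.3404 to 0.7397 and Cd3g from -0.1385 to 0.2587, intraperitoneal Trdc from -0.4376 to 0.6128 and mean Trdc from -0.3359 to 0.1748. The route difference ran from -0.2035 to 0.8952 for Trdc, from -0.4443 to 1.2143 for Cd163l1 and from -0.9211 to 0.0451 for Cd2. Depth limits the members: Tcrg-C2 and Trdv4 rest on 14 to 31 counts per group.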

Other observations

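T cell growth and homing genes were not described above. Of 15 genes, 14 passed the filter; 8 rose and 1 fell in the oral route, where 29.2% of all genes rose, and 10 rose and 0 fell in the intraperitoneal route, where 30.8% rose. Without library 28 the counts were 10 and 1 in the oral route, where 32.1% of all genes rose, and 9 and 3 in the intraperitoneal route, where 30.5% rose. Ccr7, the lymph node homing chemokine receptor gene, had 2.70 ± 1.07 CPM in IL-23 and 0.588 ± 0.314 CPM in vehicle libraries (log2 fold change 2.17, and 1.98 without library 28). Cxcr6, a receptor gene of tissue T cells, had 12.6 ± 15.1 CPM in IL-23 and 2.60 ± 0.87 CPM in vehicle libraries (log2 fold change 2.06, and 1.55 without library 28).

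Among Skint genes, which keratinocytes and thymic epithelium express and which include a selecting element for epidermal gamma delta T cells, the directions differed. Skint3 had 44.1 ± 8.46 CPM in IL-23 and 19.7 ± 4.97 CPM in vehicle libraries (log2 fold change 1.17, and 1.25 without library 28). Skint2 had 2.90 ± 0.66 CPM in IL-23 and 1.55 ± 0.85 CPM in vehicle libraries (log2 fold change 1.04, and 1.11 without library 28). Skint7 had 0.871 ± 0.407 CPM in IL-23 and 2.84 ± 0.39 CPM in vehicle libraries (log2 fold change -1.72, and -1.61 without library 28). Skint genes are close relatives of each other, so their single values are uncertain.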
